A study of Homo sapiens with 6 samples.

Results

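The unfolded protein response and the integrated stress response were followed in MOLM-13, a human acute myeloid leukaemia line that carries the MLL-AF9 translocation, through 48 genes listed by symbol. The list held stress sensors, transcription factors, ATF4 target genes, endoplasmic reticulum (ER) chaperones, disulphide oxidoreductases, and genes of ER-associated degradation (ERAD) and of the translocon. All 48 had a row among the 39771 rows of the deposited table, and all 48 reached the expression minimum of the test. The choice of genes used no measured value, but earlier results of these data were known when it was made. The 6 libraries fall into 4 labelled shLAMP5, whose cells carried a lentiviral hairpin that targets LAMP5, and 2 labelled shNT, from cells given a non-targeting hairpin. All cells were selected with puromycin before harvest. The protocol mentions harvest time points without naming them, and neither the hairpin nor the time of a library is given in the sources used here, so a group may mix them. Separate cultures are not stated for the libraries of a group, and the p-values may therefore reflect technical spread alone.

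Proteins that enter the ER fold there with the help of chaperones and of enzymes that form disulphide bonds, and those that fail are drawn back out for destruction by ERAD. Misfolded protein in the ER is sensed by the membrane proteins IRE1 (gene ERN1), PERK (EIF2AK3) and ATF6. IRE1 splices the mRNA of XBP1 into a form that encodes an active transcription factor, and ATF6 is cut at the Golgi to release another, so both factors are controlled after transcription. PERK and its sister kinases GCN2 (EIF2AK4) and HRI (EIF2AK1), which sense amino acid lack and haem lack or mitochondrial stress, phosphorylate the initiation factor eIF2. This slows translation in general while it raises that of ATF4, the transcription factor of the integrated stress response. Gene-level values, as used here, do not tell the spliced from the unspliced XBP1 mRNA, nor do they measure ATF4 translation.

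LAMP5 (ENSG00000125869) measured 80.6, 65.6, 68.8 and 86.7 TPM in shLAMP5 1 to 4, against 169.9 and 282 TPM in shNT 1 and 2, so the libraries followed their labels. TPM is an abundance scaled for transcript length and library total. Rows at 1 TPM or more numbered 12192 to 12661 per library, and read depth is unknown because TPM keeps no record of it. The library shLAMP5 2 stood apart: it was the lowest of the 6 in 44.4% of all rows tested. Median scaling, an alternative used below, divided it by 0.82, where the factors of the other libraries were 0.97 to 1.04. Myeloid markers were present, with CD33 between 61.7 and 141 TPM and SPI1 between 205 and 466 TPM. Of 5 T cell markers 4 stayed under 1 TPM, CD3E among them at or below 0.0489 TPM, while CD3D measured 1.64 to 8.41 TPM. The T cell sums were 1.94 to 8.85 TPM in shLAMP5 and 2.28 to 4.00 TPM in shNT. The platelet factor gene PF4 was listed at 0 in every library.

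Several of the genes share binding elements through which ATF6, XBP1 and ATF4 are known to act, and stretches that hold them are shown for those genes. The 48 genes were listed by role and pathway, and the list includes known targets of these factors. Shares of matches above those of all genes were therefore likely from the choice of genes, and are descriptions with no test. The 250 bases before each annotated start were searched on both strands in RefSeq promoters of the build GRCh38.p14, in which 43 of the 48 genes had an entry. The ER stress response element (ERSE: CCAAT, then 9 bases of any kind, then CCACG) was found before XBP1, HSPA5, HSP90B1, CALR, CANX, CRELD2, PDIA6 and ERO1B, 8 of the 43 genes, and in 0.0916% of all 27305 genes with a promoter entry (0.074% of 35116 promoters). The related ERSE-II (ATTGG, then 1 base, then CCACG) was found before SDF2L1, HYOU1 and HERPUD1, 3 of the 43, and in 0.0659% of all genes (0.0513% of promoters). Both contain CCACG. The C/EBP-ATF response element (CARE, searched as TGATGNAA) was found before ATF3, CEBPG, CHAC1, ASNS, PPP1R15B and HERPUD1, 6 of the 43, and in 3.89% of all genes (3.14% of promoters). The XBP1 element UPRE (TGACGTGG) was found before HYOU1 alone of the 43, where it overlaps the outer ERSE-II match, and in 0.78% of all genes (0.612% of promoters). A match is a match of letters and does not show that a factor bound there. In the lines below, capitals mark the ERSE or ERSE-II, read 5′ to 3′ along the gene. The line of HSPA5 gives the whole window and the others give the match with its flanks. They lie at chr9:125241344-125241593 on the minus strand for HSPA5, chr22:49918534-49918592 on the plus strand for CRELD2, chr11:119057254-119057410 on the minus strand for HYOU1, chr12:103930196-103930359 on the plus strand for HSP90B1 and chr22:21642094-21642144 on the plus strand for SDF2L1. The next lie at chr16:56932005-56932055 on the plus strand for HERPUD1, chr19:12938364-12938422 on the plus strand for CALR, chr22:28800583-28800641 on the minus strand for XBP1, chr2:10812833-10812891 on the minus strand for PDIA6, before the downstream of its annotated starts, and chr1:236282163-236282208 on the minus strand for ERO1B.
HSPA5: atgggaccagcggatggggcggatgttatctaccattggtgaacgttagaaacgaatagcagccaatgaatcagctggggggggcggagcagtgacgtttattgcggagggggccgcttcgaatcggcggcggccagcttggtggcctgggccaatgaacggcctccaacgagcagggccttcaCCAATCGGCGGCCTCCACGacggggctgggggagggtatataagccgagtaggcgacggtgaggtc
CRELD2: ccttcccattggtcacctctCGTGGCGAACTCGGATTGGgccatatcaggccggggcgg
HYOU1: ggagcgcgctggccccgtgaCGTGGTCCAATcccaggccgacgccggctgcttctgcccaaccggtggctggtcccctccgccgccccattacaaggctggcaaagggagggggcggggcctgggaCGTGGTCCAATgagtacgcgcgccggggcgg
HSP90B1: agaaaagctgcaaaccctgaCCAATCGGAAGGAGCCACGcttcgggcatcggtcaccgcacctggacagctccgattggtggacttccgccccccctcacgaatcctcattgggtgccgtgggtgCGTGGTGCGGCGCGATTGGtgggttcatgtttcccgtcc
SDF2L1: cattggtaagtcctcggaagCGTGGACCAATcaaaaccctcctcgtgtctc
HERPUD1: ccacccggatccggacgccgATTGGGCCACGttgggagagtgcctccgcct
CALR: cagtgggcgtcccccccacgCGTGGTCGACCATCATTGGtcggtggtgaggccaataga
XBP1: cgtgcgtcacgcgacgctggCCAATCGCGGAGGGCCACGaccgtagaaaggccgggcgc
PDIA6: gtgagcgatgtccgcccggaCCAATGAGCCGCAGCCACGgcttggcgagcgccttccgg
ERO1B: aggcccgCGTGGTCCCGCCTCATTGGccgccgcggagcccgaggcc

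Of the genes with a CARE, the asparagine synthetase gene ASNS and the glutathione-degrading enzyme gene CHAC1, both classic ATF4 targets, are shown with the CARE in capitals, at chr7:97872449-97872496 on the minus strand for ASNS and chr15:40953242-40953289 on the plus strand for CHAC1. The match in ASNS lies from base -68 to base -61, and that in CHAC1 is on the opposite strand from base -209 to base -202.
ASNS: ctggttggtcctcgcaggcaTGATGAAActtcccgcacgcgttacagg
CHAC1: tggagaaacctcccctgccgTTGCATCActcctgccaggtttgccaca

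**Figure D1:**
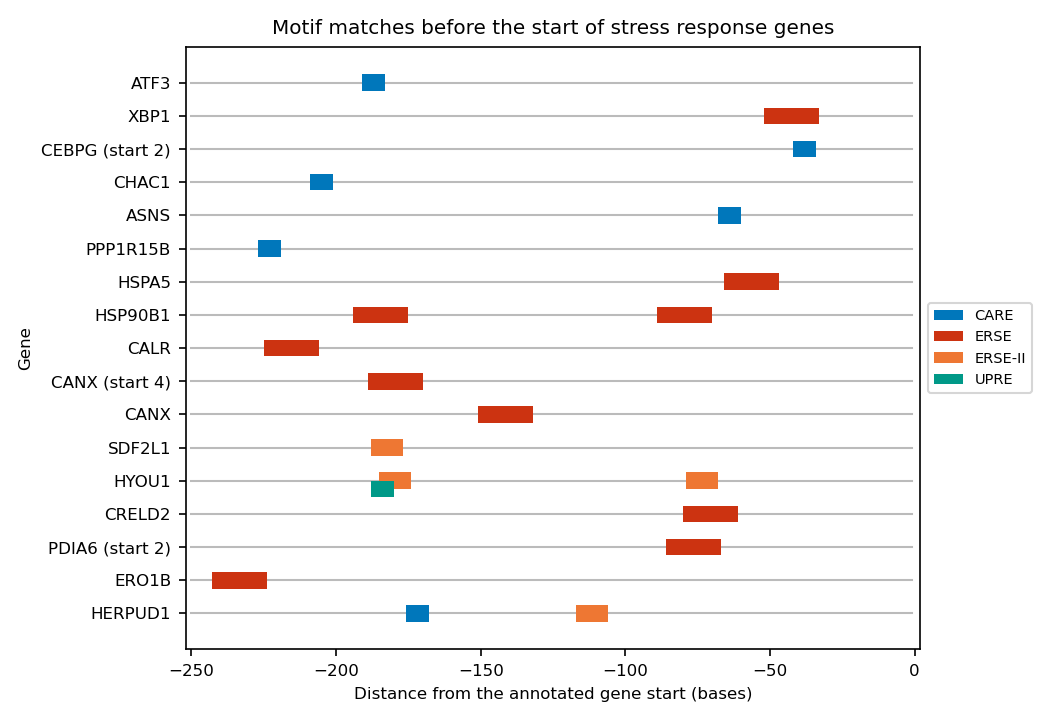
Positions of motif matches (coloured bars) in the 250 bases before the annotated gene start, for the stress response genes with at least 1 match; the x axis is the distance from the start in bases, and genes with several annotated starts have a line for each start with a match. The exact ERSE match of HSPA5 lies between bases -66 and -48, and HSP90B1 has a pair of exact ERSE matches. Near matches were not searched for.

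No stress response gene was called between shLAMP5 and shNT libraries, in a test that called no row at all, LAMP5 included. With limma on log2(TPM + 1), 0 of the 48 genes passed a Benjamini-Hochberg adjusted p of 0.05, against 0.0% of all 13072 rows tested, and the smallest adjusted p among the 48 was 0.574, for PDIA6. At an unadjusted p under 0.05, 0 of the 48 passed, against 8.97% of all rows tested (3.72% higher and 5.25% lower in shLAMP5). Log2 fold changes, shLAMP5 minus shNT, ran from -0.46 (PDIA6) to 0.65 (DDIT3), with 36 of 48 positive and a median of 0.20, beside 6439 of 13072 positive and a median of -0.0060 over all rows tested. In 2 genes, ERN1 and EDEM2, every shLAMP5 value exceeded both shNT values, 4.17% of the 48 against 8.25% of all rows tested. In 1 gene, PDIA6, every shLAMP5 value was under both, 2.08% of the 48 against 13.5% of all rows. By role, positive values numbered 4 of 6 sensors (median 0.071), 6 of 8 transcription factors (0.17), 4 of 7 ATF4 targets and feedback genes (0.34), 10 of 11 chaperones (0.22), 4 of 6 oxidoreductases (0.19) and 8 of 10 ERAD and translocon genes (0.18). In bulk RNA, fewer cells of a type and less RNA per cell cannot be told apart.

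**Figure D2:**
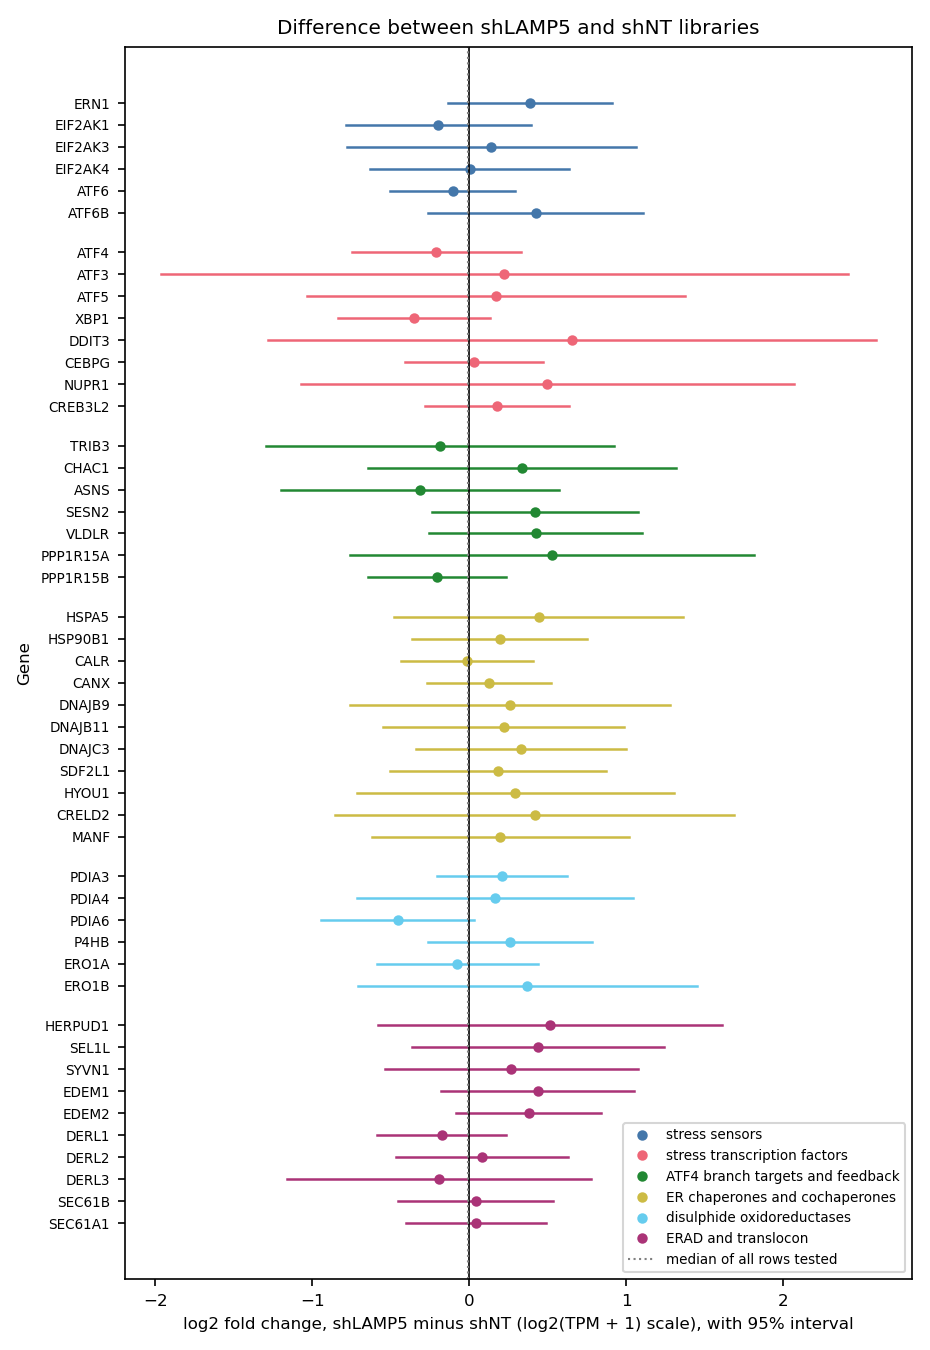
Log2 fold change of each of the 48 genes (points; shLAMP5 minus shNT, log2(TPM + 1) scale) with its 95% interval from limma (lines), grouped and coloured by role; the dotted line is the median of all rows tested. All 48 intervals include 0, and that of ATF3 is the widest, from -1.97 to 2.41.

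Most of the variation of these genes lay between libraries of the same group. The shNT libraries alone differed widely: 39 of the 48 genes were higher in shNT 1 than in shNT 2, against 43.0% of all rows tested. For 12 of the 48 the gap exceeded 1 on the log2(TPM + 1) scale, against 3.08% of all rows, and 0 of the 48 had a gap of that size the other way, against 1.47% of all rows. The 12 were ATF3, ATF5, DDIT3, NUPR1, PPP1R15A, HSPA5, DNAJB9, HYOU1, CRELD2, MANF, PDIA4 and ERO1B. The gap between the shNT libraries was larger than the difference between the groups in 36 of the 48 genes (75.0%), against 49.7% of all rows. The share of each gene's variance that lay between the groups had a median of 9.29% over the 48 genes and 16.9% over all rows tested. The highest of the 6 libraries was shLAMP5 2 in 18 of the 48 genes, against 13.7% of all rows, and shLAMP5 3 in 16, against 25.4% of all rows. The lowest was shLAMP5 4 in 11 of the 48, against 7.47% of all rows, and shNT 2 in 22, against 14.6%. In 22 of the 48 genes (45.8%) the libraries with the highest values were shLAMP5 2, shLAMP5 3 and shNT 1, a set seen in 8.55% of all rows tested. That set of libraries was noticed in these values, and the count is a description with no test.

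**Figure D3:**
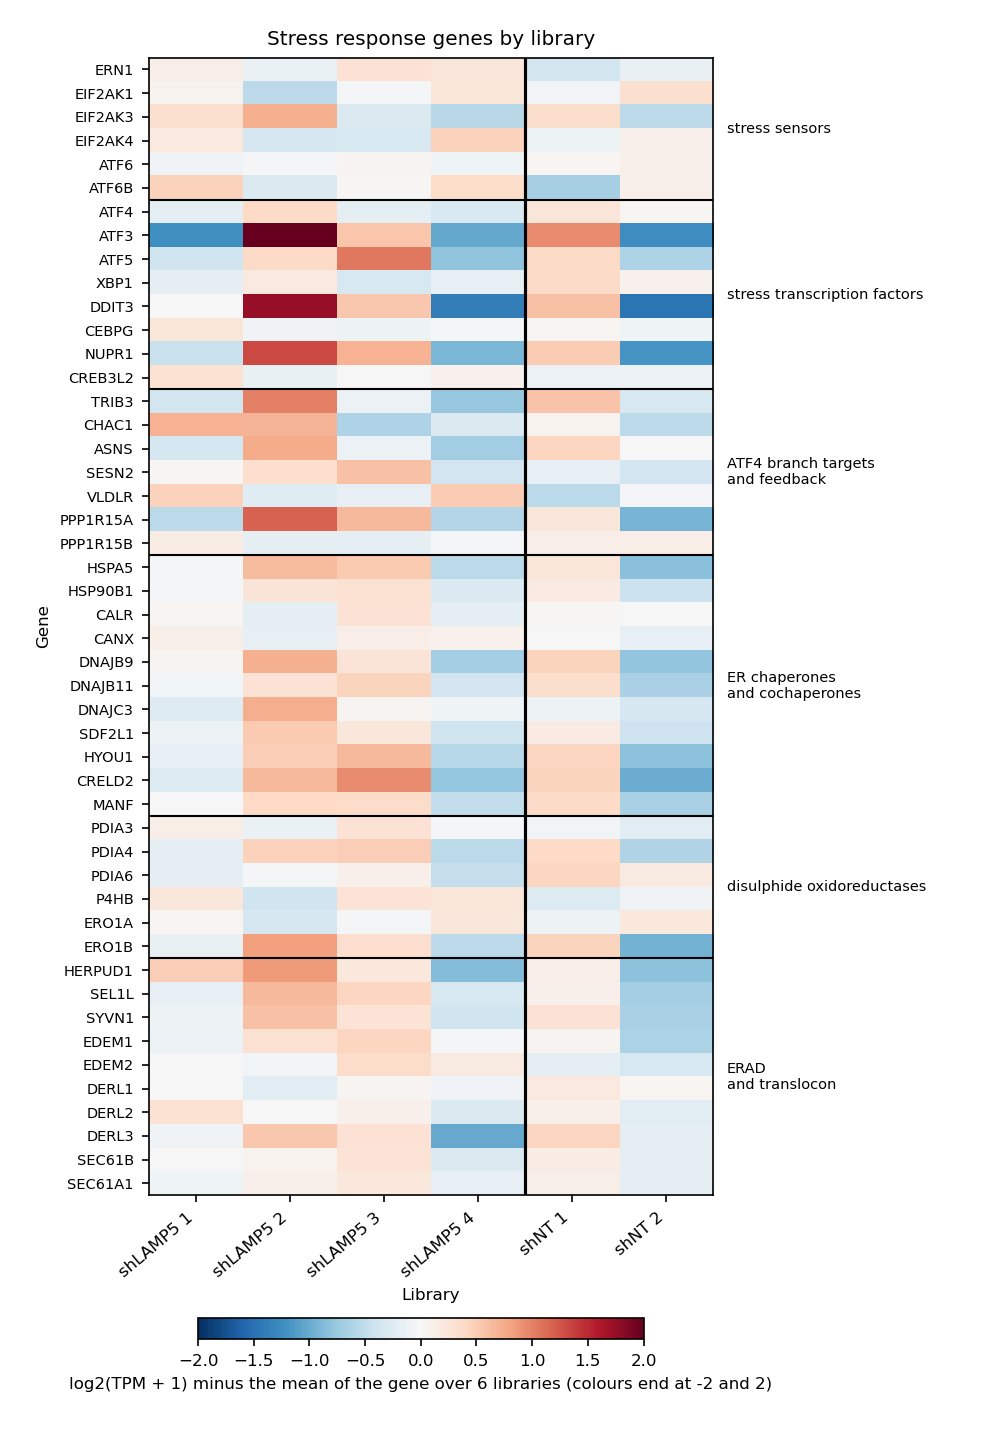
Level of each of the 48 genes (rows, grouped by role) in each library (columns, shLAMP5 left of the line and shNT right), as log2(TPM + 1) minus the mean of that gene over the 6 libraries. In most rows of the chaperone group shLAMP5 2, shLAMP5 3 and shNT 1 are red and shLAMP5 4 and shNT 2 are blue, while the sensors show no such bands.

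None of the 6 sensor mRNAs had that set of highest libraries. ERN1, which encodes IRE1, measured 2.67, 2.06, 3.08 and 2.93 TPM in shLAMP5 1 to 4, against 1.60 and 2.02 TPM in shNT 1 and 2. The groups did not overlap, but shLAMP5 2 and shNT 2 almost touched, and the log2 fold change was 0.39 (SE 0.23, limma adjusted p 0.639). ATF6B, a relative of ATF6, measured 78.7, 46.5, 57.9 and 73.5 TPM in shLAMP5 1 to 4, against 35.7 and 60.8 TPM in shNT 1 and 2 (log2 fold change 0.42, SE 0.30, limma adjusted p 0.692). Here the groups overlapped and shNT 1 was the lowest library. For 8 of the 11 chaperones shNT 1 was instead among the highest libraries, with shLAMP5 2 and shLAMP5 3. EIF2AK1, the haem-regulated kinase and the most abundant sensor by TPM, measured 66.3, 43.3, 61.1 and 74.3 TPM in shLAMP5 1 to 4, against 60.4 and 79.0 TPM in shNT 1 and 2 (log2 fold change -0.20, SE 0.26, limma adjusted p 0.852). ATF6 was the steadiest gene of all 48, between 14.6 and 16.1 TPM in shLAMP5 and at 16.0 and 16.6 TPM in shNT, a highest value 1.14 times the lowest. EIF2AK3, the PERK gene, was higher in shLAMP5 1 and 2, at 7.73 and 10.5 TPM, than in shLAMP5 3 and 4, at 4.75 and 3.81 TPM, and measured 7.91 and 3.87 TPM in shNT 1 and 2. EIF2AK4, the GCN2 gene, lay between 7.94 and 14.6 TPM in shLAMP5 and at 9.58 and 11.1 TPM in shNT.

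Of the transcription factors, ATF3, DDIT3 and NUPR1 carried the widest swings of the 48 genes. DDIT3, which encodes the pro-apoptotic factor CHOP downstream of ATF4, measured 42.8, 146, 62.9 and 15.9 TPM in shLAMP5 1 to 4, against 65.6 and 14.98 TPM in shNT 1 and 2. The highest shLAMP5 library held 9.18 times the lowest and shNT 1 held 4.38 times shNT 2, and the groups overlapped, with a log2 fold change of 0.65 (SE 0.84, limma adjusted p 0.848). ATF3, a repressor induced by many stresses, measured 4.62, 51.2, 18.3 and 5.48 TPM in shLAMP5 1 to 4, against 24.4 and 4.54 TPM in shNT 1 and 2. NUPR1, a small chromatin-associated stress protein, measured 4.83, 18.8, 11.8 and 3.22 TPM in shLAMP5 1 to 4, against 10.3 and 2.504 TPM in shNT 1 and 2. DDIT3, ATF3, NUPR1 and ATF5 all had shLAMP5 2, shLAMP5 3 and shNT 1 as their highest libraries. ATF5, a factor that guards mitochondrial proteostasis, was highest in shLAMP5 3, at 104 TPM, and lowest in shLAMP5 4, at 27.6 TPM, with 64.8 and 31.7 TPM in shNT 1 and 2.

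ATF4 itself spanned a much narrower range, its highest value 1.63 times its lowest, against 9.75 times for DDIT3. It measured 268, 404, 271 and 248 TPM in shLAMP5 1 to 4, against 363 and 314 TPM in shNT 1 and 2, averaging 298 ± 71.4 TPM in shLAMP5 (SD, n = 4) and 338 ± 34.8 TPM in shNT (SD, n = 2), with a log2 fold change of -0.21 (SE 0.23, limma adjusted p 0.820). In 3 of the 4 shLAMP5 libraries ATF4 lay below both shNT libraries, and in shLAMP5 2 it lay above both. XBP1 had the same arrangement but for shLAMP5 2, which lay between the shNT values: it measured 120, 156, 110 and 122 TPM in shLAMP5 1 to 4, against 179 and 145 TPM in shNT 1 and 2 (log2 fold change -0.35, SE 0.21, limma adjusted p 0.645). CEBPG, a dimer partner of ATF4, was nearly flat, between 28.9 and 36.9 TPM in shLAMP5 and at 32.2 and 29.4 TPM in shNT. CREB3L2, an ER-anchored factor of secretory cells, was also steady, between 12.5 and 17.7 TPM in shLAMP5 and at 12.8 and 12.9 TPM in shNT.

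The ATF4 targets and feedback genes overlapped between the groups in all 7 cases. PPP1R15A, which encodes GADD34 and lets eIF2 be dephosphorylated again, measured 36.8, 124, 84.9 and 35.6 TPM in shLAMP5 1 to 4, against 63.2 and 27.9 TPM in shNT 1 and 2 (log2 fold change 0.53, SE 0.56, limma adjusted p 0.810). It shared the highest libraries of DDIT3, whereas its constitutive paralogue PPP1R15B did not, at 30.4, 23.7, 24.03 and 26.5 TPM in shLAMP5 1 to 4 and at 30.2 and 30.1 TPM in shNT 1 and 2. TRIB3, a pseudokinase that binds ATF4 and CHOP, lay between 18.1 and 64.1 TPM in shLAMP5 and at 47.4 and 24.9 TPM in shNT, with shLAMP5 2 highest. ASNS lay between 17.6 and 49.7 TPM in shLAMP5 and at 39.8 and 28.9 TPM in shNT, again with shLAMP5 2 highest, and 3 of 4 shLAMP5 libraries lay below both shNT libraries. SESN2, a leucine sensor that restrains mTORC1, measured 14.6, 18.2, 21.9 and 10.7 TPM in shLAMP5 1 to 4, against 12.6 and 10.7 TPM in shNT 1 and 2. Its 3 highest libraries were all shLAMP5, while shLAMP5 4 sat with shNT 2 (log2 fold change 0.42, SE 0.28, limma adjusted p 0.684). VLDLR, a lipoprotein receptor induced through ATF4, ran in another order, at 17.5, 10.4, 11.0 and 18.1 TPM in shLAMP5 1 to 4 and at 8.24 and 12.2 TPM in shNT 1 and 2 (log2 fold change 0.42, SE 0.29, limma adjusted p 0.692). CHAC1 was low, at 6.22 and 6.13 TPM in shLAMP5 1 and 2 and at 1.89 and 2.64 TPM in shLAMP5 3 and 4, against 3.67 and 2.12 TPM in shNT 1 and 2.

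**Figure D4:**
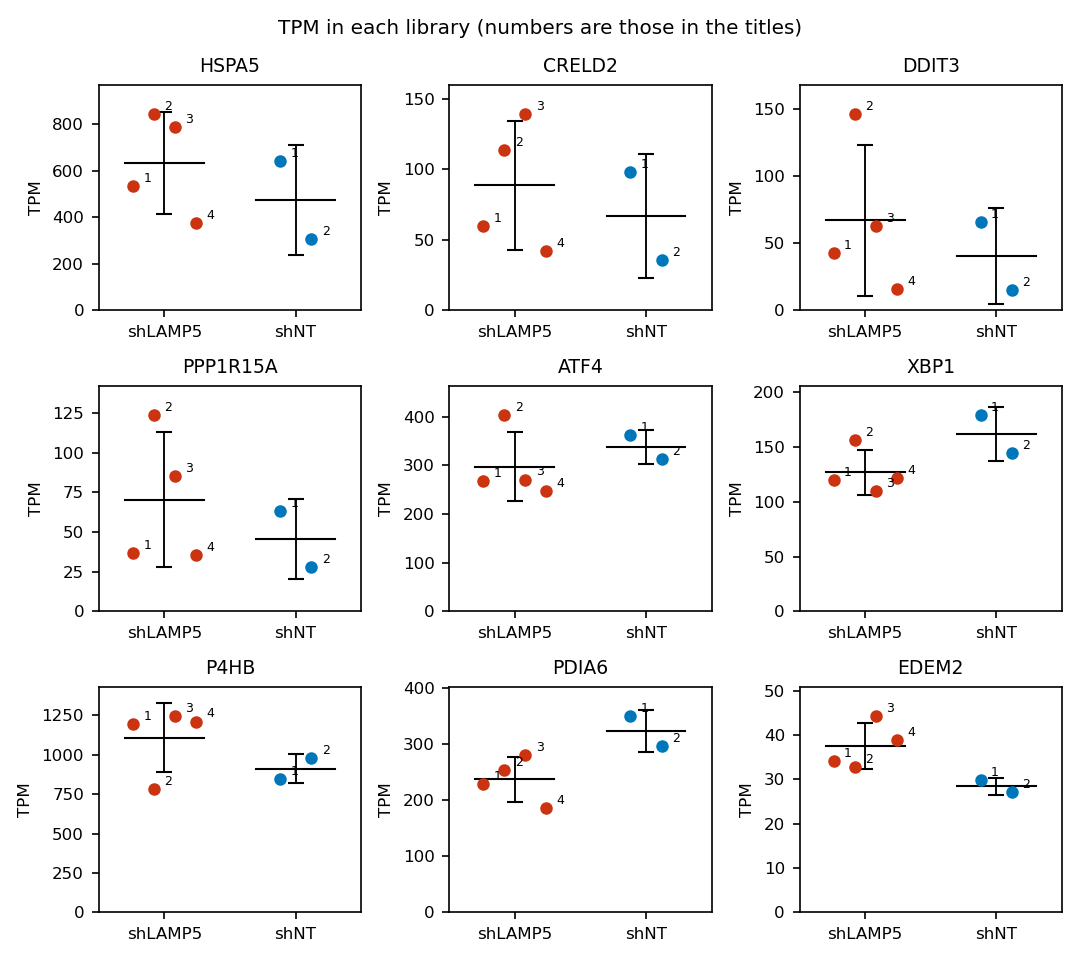
TPM of 9 stress response genes in each library (points, numbered as in the library titles), with the group mean (horizontal line) and SD (error bar; n = 4 shLAMP5 and n = 2 shNT); every y axis starts at 0. HSPA5, CRELD2, DDIT3 and PPP1R15A spread widely within both groups, and PDIA6 and EDEM2 show groups that do not overlap.

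The ER chaperones held the most uniform pattern. HSPA5, which encodes BiP, the Hsp70 chaperone that also keeps the sensors inactive, measured 536, 844, 786 and 374 TPM in shLAMP5 1 to 4, against 642 and 306 TPM in shNT 1 and 2. The groups overlapped, averaging 635 ± 219 TPM in shLAMP5 (SD, n = 4) and 474 ± 238 TPM in shNT (SD, n = 2), with a log2 fold change of 0.44 (SE 0.40, limma adjusted p 0.775). CRELD2, a secreted ER stress protein, swung most among the chaperones, at 59.8, 114, 139 and 41.9 TPM in shLAMP5 1 to 4 and at 98.2 and 35.7 TPM in shNT 1 and 2. HYOU1, a BiP nucleotide exchange factor, measured 112, 178, 198 and 85.0 TPM in shLAMP5 1 to 4, against 171 and 71.2 TPM in shNT 1 and 2. In each of these genes shLAMP5 4 and shNT 2 were the lowest pair and shLAMP5 1 stood between them and the rest. The same highest libraries, shLAMP5 2, shLAMP5 3 and shNT 1, were found for 8 of the 11 chaperone genes: HSPA5, HYOU1, CRELD2, the Hsp90 chaperone gene HSP90B1, the J-domain cochaperone genes DNAJB9 and DNAJB11, SDF2L1, which works with DNAJB11, and MANF, a regulator of BiP. All 11 were higher in shNT 1 than in shNT 2, with a median gap of 1.00 on the log2 scale. DNAJC3, a cochaperone that restrains PERK, stood out in shLAMP5 2, at 13.1 TPM, and measured 6.17, 7.94 and 7.13 TPM in shLAMP5 1, 3 and 4, against 7.02 and 5.78 TPM in shNT 1 and 2 (log2 fold change 0.33, SE 0.29, limma adjusted p 0.770).

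In the listed TPM the lectin chaperones, which hold glycoproteins for folding, did not have this set of highest libraries, although both have an ERSE. CALR was the most abundant of the 48 genes, at 1307, 1118, 1553 and 1126 TPM in shLAMP5 1 to 4 and at 1284 and 1270.0 TPM in shNT 1 and 2. It averaged 1276 ± 204 TPM in shLAMP5 (SD, n = 4) and 1277 ± 10.1 TPM in shNT (SD, n = 2), with a log2 fold change of -0.014 (SE 0.18, limma adjusted p 0.990) that became 0.019 under median scaling and 0.023 under quantile normalization. CANX lay between 469 and 581 TPM in shLAMP5 and at 529 and 469 TPM in shNT. In the listed TPM shLAMP5 2 was the lowest library for both, where it was the highest for HSPA5. The margins were small: 468.63 against 468.7 TPM in shNT 2 for CANX, and 1118.5 against 1126.1 TPM in shLAMP5 4 for CALR. Median scaling divides shLAMP5 2 by 0.82, so its place for both genes depends on the scaling. Under that scaling 25 of the 48 genes had the set of highest libraries, against 22 as listed.

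Among the disulphide oxidoreductases, PDIA6 had the smallest p of the 48 genes. It measured 228, 254, 279.7 and 187 TPM in shLAMP5 1 to 4, against 350.0 and 297 TPM in shNT 1 and 2, averaging 237 ± 39.7 TPM in shLAMP5 (SD, n = 4) and 323 ± 37.6 TPM in shNT (SD, n = 2). The groups did not overlap. The limma p was 0.0624 and the adjusted p 0.574, for a log2 fold change of -0.46 (SE 0.21) whose 95% interval ran from -0.94 to 0.030. PDIA3 and P4HB had positive values. PDIA3, the partner of the lectin chaperones, measured 701, 585, 785 and 632 TPM in shLAMP5 1 to 4, against 614 and 548 TPM in shNT 1 and 2 (log2 fold change 0.21, SE 0.18, limma adjusted p 0.756). P4HB, the classic protein disulphide isomerase, measured 1195, 780.0, 1245 and 1209 TPM in shLAMP5 1 to 4, against 846 and 978 TPM in shNT 1 and 2. Thus 3 of the 4 shLAMP5 values exceeded both shNT values (log2 fold change 0.26, SE 0.23, limma adjusted p 0.767). In the listed TPM shLAMP5 2, the library with the smallest median scaling factor, was under both. PDIA4 and ERO1B, an oxidase that keeps the isomerases active, had the highest libraries of HSPA5, with 105 to 215 TPM in shLAMP5 and 202 and 100.2 TPM in shNT for PDIA4. ERO1B measured 6.84, 14.4, 10.0 and 5.04 TPM in shLAMP5 1 to 4, against 10.9 and 3.53 TPM in shNT 1 and 2, while its paralogue ERO1A, known as a hypoxia-induced gene, had shLAMP5 2 lowest, at 18.0 TPM, and lay between 22.5 and 27.0 TPM in the other shLAMP5 libraries and at 21.3 and 26.6 TPM in shNT 1 and 2.

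For ERAD, the core of the SEL1L-HRD1 ubiquitin ligase had the highest libraries of the chaperones, and the derlin genes DERL1 and DERL2 did not. SEL1L, the adaptor, measured 32.0, 57.4, 48.8 and 28.6 TPM in shLAMP5 1 to 4, against 38.8 and 22.1 TPM in shNT 1 and 2. SYVN1, which encodes the ligase HRD1, measured 34.8, 57.1, 45.3 and 28.3 TPM in shLAMP5 1 to 4, against 45.9 and 23.7 TPM in shNT 1 and 2. Both had shLAMP5 2, shLAMP5 3 and shNT 1 as their highest libraries, as did EDEM1, DERL3, SEC61B and SEC61A1. HERPUD1, the scaffold of the ligase and a gene with both an ERSE-II and a CARE, was highest in shLAMP5 2 and 1, at 126 and 97.9 TPM, with 81.1 and 37.7 TPM in shLAMP5 3 and 4, against 76.5 and 38.9 TPM in shNT 1 and 2. EDEM1 and EDEM2 encode mannosidase-like proteins that mark glycoproteins for disposal. EDEM1 measured 39.7, 53.8, 58.8 and 42.0 TPM in shLAMP5 1 to 4, against 44.8 and 27.6 TPM in shNT 1 and 2 (log2 fold change 0.44, SE 0.27, limma adjusted p 0.657). EDEM2 measured 34.2, 32.8, 44.3 and 38.9 TPM in shLAMP5 1 to 4, against 29.9 and 27.1 TPM in shNT 1 and 2, which with ERN1 made up the genes higher in every shLAMP5 library (log2 fold change 0.38, SE 0.20, limma adjusted p 0.606). The channel proteins DERL1 and DERL2 overlapped between the groups, DERL1 between 110.0 and 134 TPM in shLAMP5 and at 148 and 133 TPM in shNT, and DERL2 between 2.99 and 5.03 TPM in shLAMP5 and at 4.27 and 3.21 TPM in shNT. DERL3 was low, between 4.15 and 14.03 TPM in shLAMP5 and at 13.0 and 8.18 TPM in shNT. SEC61B, a subunit of the translocon through which proteins enter the ER, measured 203, 213, 245 and 167 TPM in shLAMP5 1 to 4, against 225 and 177 TPM in shNT 1 and 2 (log2 fold change 0.040, SE 0.21, limma adjusted p 0.972). SEC61A1, the channel itself, kept within 139 and 179 TPM in shLAMP5 and measured 169 and 138 TPM in shNT.

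The sign of many differences depended on which shNT library was kept. Where a single shNT library was left, it was assumed to vary like the shLAMP5 libraries. Without shNT 2, 22 of the 48 log2 fold changes had the opposite sign to that with all libraries, and the median over the 48 was -0.10. Sign changes were not counted over all rows, so these counts have no background. A shNT gap larger than the difference between the groups was found in 75.0% of the 48 and in 49.7% of all rows. Without shNT 1 the median was 0.37 and 3 signs differed. For the 11 chaperone genes the median was 0.22 with all libraries, -0.11 without shNT 2 and 0.71 without shNT 1. The value of HSPA5 was -0.089 when shNT 2 was left out and 0.98 when shNT 1 was, and that of DDIT3 was -0.37 and 1.68. ERN1, EDEM2, PDIA6, XBP1 and ATF4 were among the 22 genes whose sign was the same with any 1 library left out. For ERN1, EDEM2 and PDIA6 no other outcome was possible, since their groups did not overlap. Without shLAMP5 2 the median over the 48 was 0.11, and 7 of the 48 (14.6%) passed an unadjusted p of 0.05 with limma, against 17.6% of the 12769 rows tested, so the share was no higher than over all rows. The 7 were P4HB (log2 fold change 0.42, p 0.0105), ERN1 (0.47, p 0.0424) and EDEM2 (0.44, p 0.0341) on the positive side, and XBP1 (-0.46, p 0.0194), ATF4 (-0.36, p 0.0284), ASNS (-0.60, p 0.0383) and PDIA6 (-0.50, p 0.0427) on the negative side. None of the 7 passed after Benjamini-Hochberg adjustment over all rows, with a smallest adjusted p of 0.196.

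**Figure D5:**
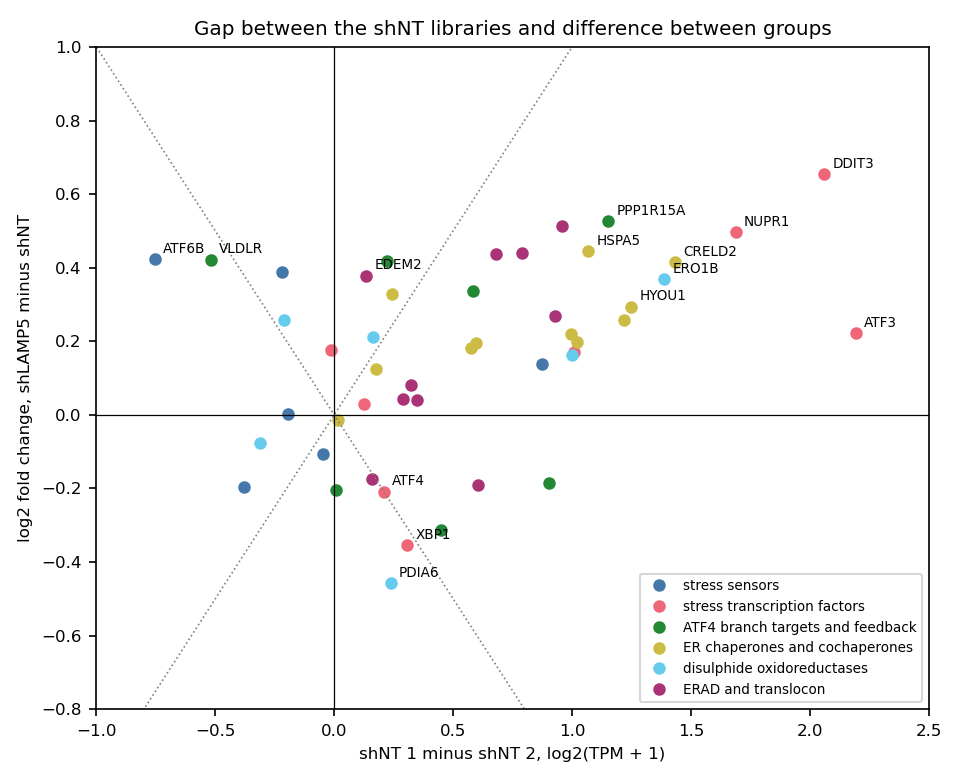
Each point is 1 of the 48 genes, coloured by role, with the difference between the shNT libraries (shNT 1 minus shNT 2, log2(TPM + 1)) on the x axis and the log2 fold change between groups (shLAMP5 minus shNT) on the y axis. Points between the dotted diagonals and the horizontal line, 36 of 48, have a shNT gap larger than the difference between groups; both axes use the shNT libraries, so the points are not independent of each other along the axes.

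By the mean of log2(TPM + 1), shLAMP5 2, shLAMP5 3 and shNT 1 were the highest libraries for each role except the sensors and the ATF4 targets. For the chaperones the mean was 7.01, 7.47, 7.46 and 6.68 in shLAMP5 1 to 4, against 7.30 and 6.52 in shNT 1 and 2. For the transcription factors it was 5.02, 5.99, 5.54 and 4.70 in shLAMP5 1 to 4, against 5.64 and 4.69 in shNT 1 and 2, and for ERAD and translocon genes 5.51, 5.77, 5.75 and 5.16, against 5.63 and 5.10. In these roles shLAMP5 4 and shNT 2 were the lowest pair. The sensors lay between 3.89 and 4.18 in shLAMP5 and at 3.86 and 3.98 in shNT. The ATF4 targets lay between 4.02 and 4.84 in shLAMP5, with shLAMP5 2 highest, and at 4.44 and 4.05 in shNT. For them shNT 1 came next, then shLAMP5 1 and shLAMP5 3, nearly level at 4.352 and 4.343. Here too shLAMP5 4 and shNT 2 were the lowest pair, so this exception is a near tie. Other measures were compared across the same libraries. The mean of 20 cell cycle genes was lower in all 4 shLAMP5 libraries, between 4.93 and 5.78, than in shNT, at 6.46 and 6.48. The mean of the 13 monocyte and macrophage markers tested, of 19 listed, was between 5.51 and 6.75 in shLAMP5 and at 5.23 and 4.91 in shNT. The summed level of the 6 packaging cell and fibroblast markers, of which 5 stayed under 1 TPM and COL3A1 was listed at 0 throughout, was 1.85, 6.62, 5.15 and 1.51 TPM in shLAMP5 1 to 4, against 3.65 and 1.12 TPM in shNT 1 and 2, and COL1A1 alone ran from 0.981 to 5.91 TPM in shLAMP5 and measured 2.75 and 0.696 TPM in shNT. The order of these sums is that of the chaperone means and is the order of COL1A1. The other markers did not all share it: in shLAMP5 2 DCN and LUM were listed at 0 and PDGFRB measured 0.255 TPM, under its 0.494 TPM in shLAMP5 1. The part of COL1A1 in the result was not tested. The lysozyme gene LYZ ran nearly the other way, at 9730, 1397, 5119 and 9415 TPM in shLAMP5 1 to 4 and at 1984 and 6062 TPM in shNT 1 and 2, and dominated the summed level of the 8 myeloid markers, which was 1938 to 10409 TPM in shLAMP5 and 2512 to 6564 TPM in shNT. Its part was not tested. Of the 6 B and plasma cell markers 5 stayed under 1 TPM, with sums of 1.69 to 2.92 TPM in shLAMP5 and 0.948 to 1.21 TPM in shNT. Mitochondrially encoded genes made up 10.9%, 14.1%, 8.75% and 9.38% of the listed TPM in shLAMP5 1 to 4, against 9.32% and 9.85% in shNT 1 and 2, with shLAMP5 2 highest, and the part of this in the values of that library was not tested either.

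Other genes of the same pathways were listed beside the 48. Of 24 other ATF4 targets tested, 0 passed the limma threshold in either direction, 3 had an unadjusted p under 0.05 on each side, and the median log2 fold change was -0.053. Over all rows tested 3.72% were higher and 5.25% lower in shLAMP5 at that p, a background for this list and those that follow. KLHL24 and CEBPB had the smallest p on the positive side, with 0.64 and 0.93, and the serine hydroxymethyltransferase gene SHMT2 and the transaminase gene GPT2 on the negative side, with -0.47 and -0.69. SHMT2 measured 107, 108, 99.9 and 96.5 TPM in shLAMP5 1 to 4, against 143 and 143 TPM in shNT 1 and 2, so the groups did not overlap (limma p 0.0236, adjusted p 0.524). Of 17 genes of eIF2, its exchange factor eIF2B and their regulators, 13 had negative values and the median was -0.16. EIF2B1, a subunit of eIF2B, measured 54.5, 44.4, 49.0 and 56.4 TPM in shLAMP5 1 to 4, against 71.9 and 75.3 TPM in shNT 1 and 2 (log2 fold change -0.52, SE 0.19, limma adjusted p 0.520). The kinase PKR (EIF2AK2) and DELE1, which relays mitochondrial stress to HRI, had the smallest p on the positive side, with 0.31 and 0.16, and EIF2B3 had -0.53. Of the 17, 0 passed after adjustment, and 0 had an unadjusted p under 0.05 on the positive side and 1 on the negative side.

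Of 25 other ERAD genes, 0 passed, 1 had an unadjusted p under 0.05 (higher in shLAMP5), and the median was -0.032. OS9, a lectin that delivers glycoproteins to the SEL1L-HRD1 ligase, measured 189, 196, 238 and 199 TPM in shLAMP5 1 to 4, against 140.1 and 130.3 TPM in shNT 1 and 2. The groups did not overlap for OS9, with a log2 fold change of 0.60 (SE 0.18, limma p 0.0104, adjusted p 0.505). HERPUD2 had 0.43, FAF2 -0.42 and UFD1 -0.25. Of 29 other ER folding genes, 0 passed and 1 had an unadjusted p under 0.05 (higher in shLAMP5), with a median of 0.017, CRELD1 at 0.54 and FKBP2 at 0.54 on the positive side, and TMX4 at -0.35 and TXNDC5 at -0.30 on the negative side. Of 22 translocon, signal recognition and signal peptidase genes, 0 passed, also without adjustment, with a median of 0.065, SEC62 at 0.24, SSR4 at 0.25, SRPRA, a subunit of the signal recognition particle receptor, at -0.40 and SSR3 at -0.30. Of 16 other ER stress regulators, 0 passed and 1 had an unadjusted p under 0.05 (lower in shLAMP5), with a median of -0.076. NFYA, a subunit of the NF-Y complex that binds the CCAAT part of the ERSE, measured 32.6, 25.6, 29.9 and 29.0 TPM in shLAMP5 1 to 4, against 42.0 and 42.5 TPM in shNT 1 and 2 (log2 fold change -0.52, SE 0.19, limma adjusted p 0.520). Every shLAMP5 value of NFYA was under both shNT values. TRAF2, an adaptor of IRE1, had -0.38, and TMBIM6 and CREB3 had 0.20 and 0.17.

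In the wider pathway shLAMP5 2, shLAMP5 3 and shNT 1 were the highest libraries in 7 of the 24 other ATF4 targets (29.2%) and 4 of the 29 folding genes (13.8%), beside the 8.55% of all rows. The count was 1 of the 25 ERAD genes, 1 of the 22 translocon genes, 1 of the 16 regulators and 0 of the 17 eIF2 and eIF2B genes, each share under 8.55%. Among the 48, by the listed TPM, they were highest in 6 of the 11 genes with an ERSE or ERSE-II match and in 14 of the 32 without. The genes with a match were all higher in shNT 1 than in shNT 2, by between 0.016 (CALR) and 1.43 (CRELD2) on the log2 scale, with a median of 0.59, and those without had a median of 0.34 and 24 of 32 higher in shNT 1.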

How the data were processed

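RNA sequencing libraries of MOLM-13 cells (4 shLAMP5, 2 shNT) were grouped by their titles. The authors deposited 1 table of genes by libraries that names no unit. The values the authors deposited were read as TPM (transcript abundance normalised for length and library), since they have decimals and add up to 897030 to 912560 in each library. Kallisto and the build hg19 come from the submitters' processing notes. Its version and transcript set, and whether rows were filtered, were not stated. Because TPM holds no read number, depth and counting error are unknown. Of 39771 Ensembl identifiers, 35558 were matched to a symbol.

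Log2(TPM + 1) values of the 13072 rows that reached 1 TPM in 2 or more libraries were fitted with limma 3.58.1 under R 4.3.3, allowing the variance to follow the mean, with group as the sole factor, Benjamini-Hochberg adjustment over all rows and a threshold of 0.05. Fold changes are shLAMP5 minus shNT on that scale, which understates changes of low genes. For LAMP5 the exact two-sided permutation p over 15 splits was 0.0667, the smallest they allow, and the limma log2 fold change was -1.54 (adjusted p 0.252). The members, their roles and the other lists were chosen with earlier results of these data known. All 48 members are named. Those given in full with their test were ATF4, DDIT3, XBP1, HSPA5 and, per role, the 2 members with the smallest p and the most abundant one. Of each list of other pathway genes, up to 2 genes per direction with the smallest p are named. The cell cycle and the monocyte and macrophage lists are given by their means. Any further values were chosen after they were seen. Tables were handled with pandas 2.3.3 under Python 3.11.15. Alternatives were other pseudocounts, filters, scalings and thresholds, the replicate number as a block, and leaving out each library. Promoter windows came from RefSeq (GRCh38.p14), and no coordinates were taken from the table.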

Additional observations from a re-analysis of the deposited data

Results flagged for a closer look

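In 2 of the 49 genes examined (the 48 and LAMP5), 1 of the 4 shLAMP5 libraries lay far from the other 3, where chance flags about 1 group in 20. ATF4 measured 403.7 TPM in shLAMP5 2, against 270.9 TPM in the nearest and 247.9 TPM in the farthest of the other shLAMP5 libraries. P4HB measured 780.0 TPM in shLAMP5 2, against 1195 TPM in the nearest and 1245 TPM in the farthest. These are listed TPM, in which shLAMP5 2 was the lowest library in 44.4% of all rows tested. The flags were not rerun after median scaling, which divides shLAMP5 2 by 0.82.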

How the results depend on the processing

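The direction of LAMP5 and the absence of called genes among the 48 held under every alternative run. Of 619 values of single genes under alternatives, 574 kept their sign. Beyond single libraries, EIF2AK4 turned to -0.0010 with a pseudocount of 0.1, and CALR to 0.019 with median scaling and 0.023 with quantile normalization. Over all rows, 14 genes were called with no filter and 1761 had an unadjusted p under 0.05, against 0 and 1172. Among the 48, EDEM2 alone had an unadjusted p under 0.05 with median scaling and with quantile normalization, a count of 1 in each. Those settings gave 1554 and 1426 such genes over all rows, against 1172 in the main fit (8.97% of rows). The count of 1 in 48 is therefore no excess over all rows. With the minimum raised to 10 TPM, the ATF4 targets and feedback genes had a median of 0.12. At that minimum 1 of the listed genes lay above both shNT libraries in every shLAMP5 library, where median scaling gave 4. The main fit gave 2 of the 48 (4.17%), against 8.25% of all rows. Under the other settings that share over all rows was not taken, so the counts of 1 and 4 above both shNT libraries have no background. Leaving out 1 library gave 408 to 2248 genes at an unadjusted p under 0.05 over all rows, 0 to 7 among the 48, and a median of -0.048 to 0.30 for the ATF4 targets and feedback genes. The cause of these changes was not tested.

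The shared replicate numbers 1 and 2 did not mark pairs that deviate together, and the labels do not say what a number marks. The correlation across genes of deviations from the group mean was -0.52 for number 1 and -0.47 for number 2. The deviations of shNT 1 and shNT 2 from their mean are equal and opposite, so these correlations are not separate checks. Numbers 3 and 4 occur in shLAMP5 alone, so with the number as a block the difference rests on numbers 1 and 2. That fit called 16 genes over all rows, 282 had an unadjusted p under 0.05, and among the 48 this count was 2 (DDIT3 at 1.30 and HERPUD1 at 1.01). It is no check on all 6 libraries. For DDIT3 shLAMP5 1 lay under shNT 1 (42.8 against 65.6 TPM) and shLAMP5 2 over shNT 2 (146 against 14.98 TPM). For HERPUD1 the shLAMP5 library was higher at both numbers. Under the block EIF2AK4 had -0.069, TRIB3 0.20 and DERL3 0.11.

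Leaving out 1 library at a time, the log2 fold change took both signs in 26 of the 48 genes, a count not made over all rows. The log2 fold change ran from -0.30 to 0.58 for EIF2AK3, -0.15 to 0.12 for EIF2AK4 and -0.87 to 1.32 for ATF3. Its range was -0.33 to 0.68 for ATF5, -0.37 to 1.68 for DDIT3, -0.045 to 0.093 for CEBPG and -0.35 to 1.34 for NUPR1. It ran from -0.64 to 0.27 for TRIB3, -0.048 to 1.10 for PPP1R15A, -0.089 to 0.98 for HSPA5, -0.10 to 0.49 for HSP90B1, -0.11 to 0.045 for CALR, -0.35 to 0.87 for DNAJB9 and -0.28 to 0.72 for DNAJB11. The range was -0.11 to 0.47 for SDF2L1, -0.33 to 0.92 for HYOU1, -0.30 to 1.13 for CRELD2, -0.31 to 0.71 for MANF, -0.34 to 0.66 for PDIA4, -0.23 to 0.081 for ERO1A and -0.33 to 1.06 for ERO1B. Values spanned -0.20 to 0.73 for SYVN1, -0.080 to 0.24 for DERL2, -0.49 to 0.12 for DERL3, -0.13 to 0.21 for SEC61B and -0.10 to 0.19 for SEC61A1.

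With 2 shNT libraries even the log2 fold change of -1.54 of LAMP5 was not called (limma adjusted p 0.252), so 0 called genes do not show that the groups are alike. Read depth is unknown, and no counting error is given. Values are per gene, and neither XBP1 splicing, ATF4 translation nor phosphorylation was measured.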
